A study of Mus musculus with 6 samples.

Results

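The cytochrome P450s of families 1 to 3 were followed gene by gene in mouse livers exposed to 2 oxidised linoleic acid products, and the subfamily Cyp2c was left out. Members were the gene models named Cyp1, Cyp2 or Cyp3 with a letter and a number, outside Cyp2c, that had at least 1 count in any library. Of 55401 gene models, 45 carried such a name and 33 of them had counts. The remaining 12 (Cyp2b19, Cyp2b23, Cyp2d34, Cyp2j7, Cyp2j11, Cyp2j12, Cyp2j13, Cyp2w1, Cyp3a41a, Cyp3a41b, Cyp3a44 and Cyp3a57) had 0 counts in all 6 libraries. Library totals of 70300597 to 78615288 counts put the limit that a count of 0 allows (3 counts) at 0.0382 to 0.0427 CPM (counts scaled to library size). Of the 33 members, 29 had a mean of at least 0.1 FPKM over the 6 livers (fragments scaled to transcript length and library size, so that genes of different length can be compared) and entered the test. Cyp1b1, Cyp2b13, Cyp2j8 and Cyp2t4 did not.

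All mice were C57BL/6 males, 8 weeks old when treatment began. In the 9/13-HODEs group, 3 mice received 9 daily intraperitoneal doses of 9/13-HODEs, which contains as much 9-HODE as 13-HODE, at 0.5 μg per g of body weight. In the Ctrl group, 3 mice were given the solvent (PEG400 and water) by the same route and schedule. One poly(A) RNA library was sequenced per liver, so each group had n = 3 mice, and the comparison asked how the lipids altered liver transcripts.

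P450s are haem enzymes of the endoplasmic reticulum that insert 1 oxygen atom into their substrate and take their electrons from P450 oxidoreductase (Por) and cytochrome b5 (Cyb5a). Families 1 to 3 oxidise drugs, toxins, steroids and fatty acids, and in the mouse they have expanded into tandem gene clusters. Their transcription in hepatocytes is governed by receptors for foreign compounds, AHR for Cyp1a, CAR for Cyp2b and PXR for Cyp3a, and by the pulsatile release of growth hormone, which makes many of them male- or female-biased. Many are also zoned along the liver lobule, with Cyp1a2 and Cyp2e1 around the central vein and Cyp2f2 around the portal tract.

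No member passed an adjusted p of 0.05 in edgeR's quasi-likelihood test over 14741 genes (0 of 29), and the smallest adjusted p of a member was 0.527, for Cyp2d12. In all tested genes the share past that threshold was 0.0 percent higher and 0.0204 percent lower in 9/13-HODEs livers (3 genes). DESeq2 called 3 members at an adjusted p under 0.05, Cyp2a4, Cyp2d11 and Cyp2d12, against 0.631 percent of the genes it gave an adjusted p. At an unadjusted edgeR p under 0.05 there were 6 members, 3 higher in 9/13-HODEs livers (Cyp2a4, Cyp2b9 and Cyp2g1) and 3 lower (Cyp1a1, Cyp2d11 and Cyp2d12). That was 20.7% of the tested members, beside 7.69 percent of all tested genes (4.08 percent higher and 3.61 percent lower). All 6 also exceeded the study's threshold of 0.65 on the log2 scale, which with that p held for 1.49 percent of all genes as higher and 1.62 percent as lower. With counts scaled to the library total instead of by TMM, the members split into 3 higher and 7 lower, beside 2.5 percent and 5.24 percent of all genes, whose median then lay at -0.074. In limma-trend they split into 3 higher and 7 lower with a pseudocount of 0.1, beside 2.85 percent and 4.97 percent of all genes, and into 2 higher and 7 lower with a pseudocount of 1, beside 2.8 percent and 5.01 percent. Without 9/13-HODEs replicate 3 the split in edgeR was 3 higher and 7 lower, beside 3.54 percent and 3.2 percent. In bulk liver, fewer cells of a type and less RNA per cell cannot be told apart.

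More of the tested members were lower than higher in 9/13-HODEs livers. Their log2 fold change (9/13-HODEs over Ctrl) was negative for 19 and positive for 10, with a median of -0.13, whereas 49.9 percent of all tested genes were negative and their median was 0.0012. In FPKM the 2 groups did not overlap for 11 members, 3 higher and 8 lower in 9/13-HODEs livers, beside 5.28 percent of all genes as higher and 9.82 percent as lower. With FPKM divided by the TMM factors it was 3 higher and 7 lower (Cyp1a2 then overlapped), beside 8.71 percent and 6.99 percent. An exact two-sided permutation test of 3 mice against 3 cannot give a p below 0.1, which is the value for each of the 11.

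**Figure D1:**
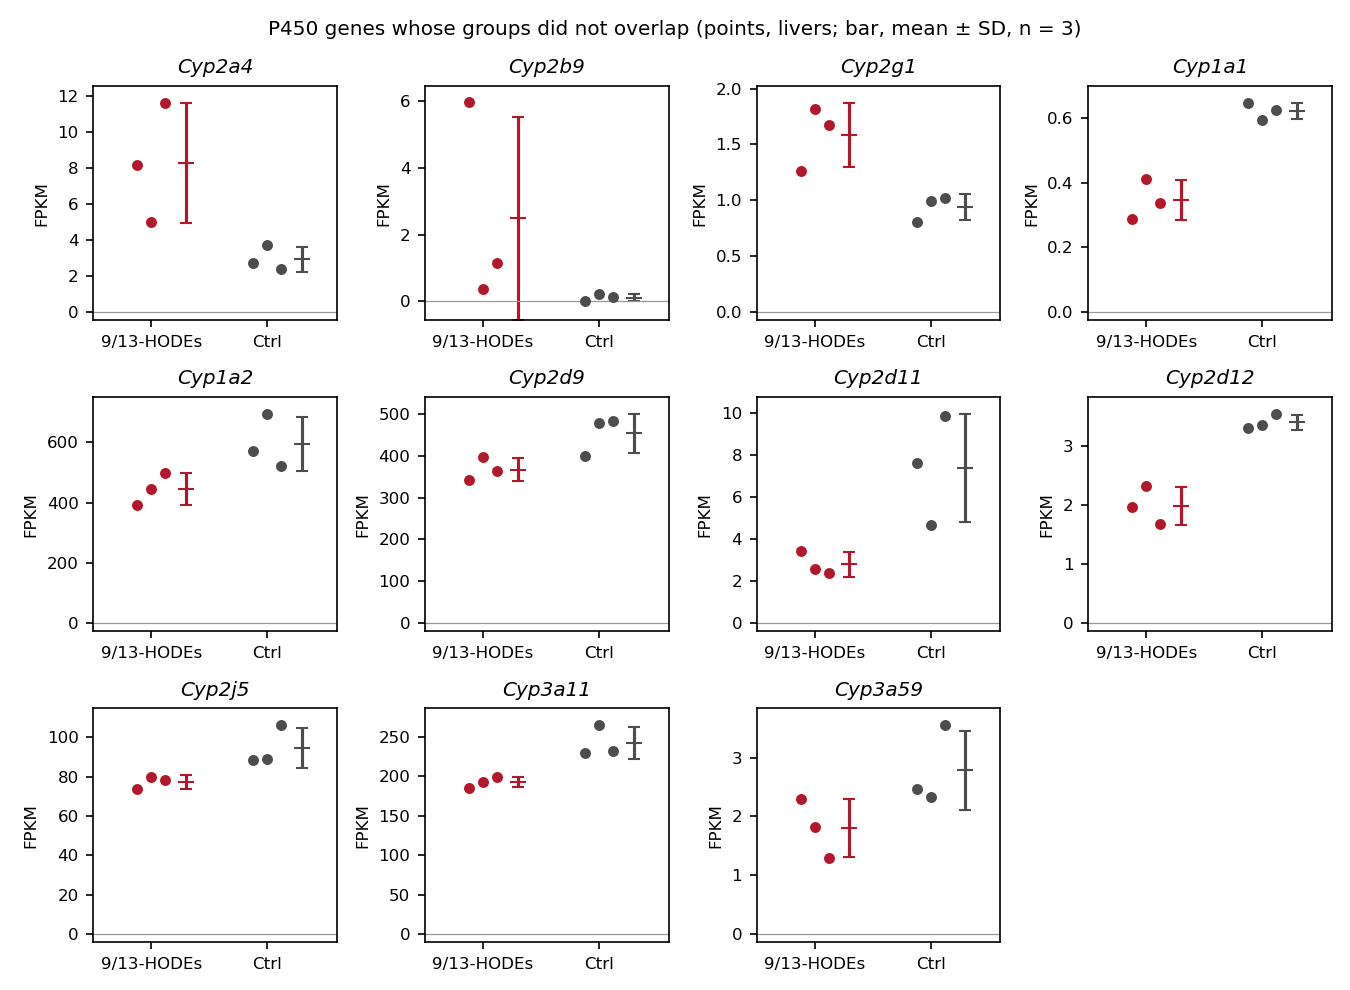
FPKM of the 11 P450 genes whose 9/13-HODEs (left, red) and Ctrl (right, grey) livers did not overlap. Each point is a liver and the bar beside it marks the mean ± SD (n = 3). Cyp2a4, Cyp2b9 and Cyp2g1 lie higher in 9/13-HODEs livers and the other 8 lower, and the single liver at 5.99 FPKM sets the mean of Cyp2b9.

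One cluster carried all 3 of the higher members. It holds 11 members between 25802475 and 27158668 on chromosome 7 (coordinates as deposited, with no build named, but equal to GENCODE M21 on GRCm38 in start and end for 32 of the 33 members), in the order Cyp2s1, Cyp2b10, Cyp2b13, Cyp2b9, Cyp2a4, Cyp2g1, Cyp2a5, Cyp2a22, Cyp2a12, Cyp2f2 and Cyp2t4. Of its 9 tested genes 7 had positive fold changes, with a median log2 fold change of 0.29. Of the 20 tested members elsewhere 3 were positive and 17 negative, with a median of -0.23. This division was seen in the values and was given no test, and without 9/13-HODEs replicate 3 the cluster had 4 positive genes of 9 and a median of -0.019.

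**Figure D2:**
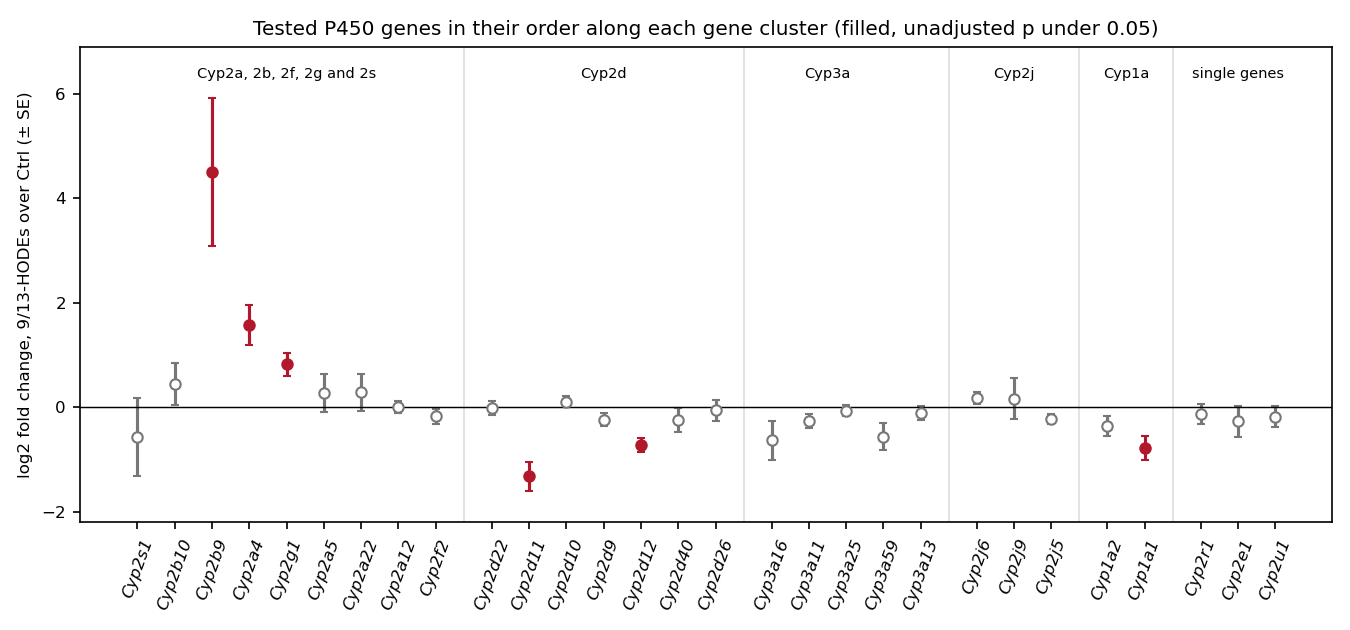
Log2 fold change (9/13-HODEs over Ctrl, ± SE, edgeR) of the 29 tested P450 genes, in their order along each gene cluster. Filled red points have an unadjusted p under 0.05. Cyp2b9, Cyp2a4 and Cyp2g1 stand next to each other among the tested genes of the chromosome 7 cluster, at 4.50, 1.57 and 0.82, while 6 of the 7 Cyp2d genes and all 5 Cyp3a genes lie under 0.

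Cyp2a4, which hydroxylates testosterone and is female-biased in mouse liver, lies at 26307169 to 26315088 on chromosome 7. It had 8.21, 5.02 and 11.7 FPKM in the 9/13-HODEs livers, against 2.73, 3.72 and 2.37 FPKM in the Ctrl livers. All 3 treated livers were above all 3 Ctrl livers. Its log2 fold change was 1.57 (SE 0.38, unadjusted p = 0.0045, adjusted p = 0.649 in edgeR and 0.0071 in DESeq2), and leaving out any single library kept it between 1.19 and 1.86.

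Cyp2a5, the coumarin hydroxylase of mouse liver, has a coding sequence 98.4% identical to that of Cyp2a4 over its whole length, so reads of the pair may have been divided between them in counting. It was measured at 144, 152 and 340.4 FPKM in 9/13-HODEs livers and at 185, 189 and 186 FPKM in Ctrl livers. The spread of the treated livers came from replicate 3, and the groups overlapped. The log2 fold change of 0.28 (SE 0.37, unadjusted p = 0.475) turned to -0.31 without that library (unadjusted p = 0.0187 in edgeR). When the counts of the pair were added into 1 row, the log2 fold change was 0.30 with an unadjusted p of 0.431. Cyp2a4 made up 5.40, 3.19 and 3.31% of the FPKM of the pair in 9/13-HODEs livers and 1.45, 1.93 and 1.26% in Ctrl livers. This share did not overlap between groups (exact two-sided permutation p = 0.1, the smallest possible). It is not independent of the Cyp2a4 values above.

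Cyp2a12, a steroid and bile acid hydroxylase, was at 179, 160 and 164 FPKM in 9/13-HODEs livers and 163, 187 and 174 FPKM in Ctrl livers. Its log2 fold change was 0.0071, with a 95% interval of -0.28 to 0.29. Cyp2a22, whose coding sequence is 97.0% identical to that of Cyp2a12, was at 0.77 to 1.27 FPKM in 9/13-HODEs livers and 0.55 to 1.35 FPKM in Ctrl livers. A pseudogene, Cyp2a21-ps, overlaps it on the other strand.

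The promoters of Cyp2a4 and Cyp2a5 are shown because the share of Cyp2a4 in the pair did not overlap between groups while the sequence upstream of both genes was nearly the same. The windows run from 250 bases before to 50 bases after the RefSeq start (GRCm38.p6, chromosome 7, plus strand, 26306942 to 26307241 for Cyp2a4 and 26835089 to 26835388 for Cyp2a5). Capitals mark matches on either strand to TATAAA (the TATA box) or AGGTCA (a half-site of nuclear receptors, here as its reverse complement).
Cyp2a4: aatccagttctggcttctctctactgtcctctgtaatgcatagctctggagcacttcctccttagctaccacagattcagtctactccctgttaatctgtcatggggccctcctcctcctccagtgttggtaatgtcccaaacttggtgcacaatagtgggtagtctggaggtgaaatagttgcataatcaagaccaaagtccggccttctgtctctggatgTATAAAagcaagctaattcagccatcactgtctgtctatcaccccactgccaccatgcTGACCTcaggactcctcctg
Cyp2a5: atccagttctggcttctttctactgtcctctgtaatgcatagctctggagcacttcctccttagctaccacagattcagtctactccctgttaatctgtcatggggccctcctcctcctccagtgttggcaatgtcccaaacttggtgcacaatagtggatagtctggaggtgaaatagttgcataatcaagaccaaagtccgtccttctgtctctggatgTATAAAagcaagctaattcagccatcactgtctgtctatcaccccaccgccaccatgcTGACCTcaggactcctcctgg
Aligned end to end, the windows were 97.7% identical, with 5 mismatches and 2 gap positions. Both had TATAAA, at -28 in Cyp2a4 and at -29 in Cyp2a5, and both had the half-site downstream of the start, at 30 and 29.

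Cyp2b9 is a female-biased gene at 26173411 to 26210661 on chromosome 7. It had 881, 58 and 187 counts in 9/13-HODEs livers (5.99, 0.365 and 1.14 FPKM) and 0, 32 and 19 counts in Ctrl livers (0.217 and 0.117 FPKM where counted). The groups did not overlap, but 9/13-HODEs replicate 1 held most of the counts. Its log2 fold change was 4.50 (SE 1.42, unadjusted p = 0.0167, adjusted p = 0.649 in edgeR), and it was 2.82 with an unadjusted p of 0.0661 without that library. The p was 0.0541 without Ctrl replicate 3 and 0.0557 in limma-trend on log2(FPKM + 1).

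Cyp2b10, the standard target of CAR and of phenobarbital, was at 1.23, 1.09 and 2.49 FPKM in 9/13-HODEs livers against 1.34, 1.42 and 0.977 FPKM in Ctrl livers. The groups overlapped, and its log2 fold change of 0.45 (SE 0.40, 95% interval -0.51 to 1.41) was -0.081 without 9/13-HODEs replicate 3. Cyp2b13, another female-biased gene, had 8, 0 and 6 counts in 9/13-HODEs livers and 2, 0 and 0 counts in Ctrl livers, too few to compare. The summed Cyp2b level was 7.26, 1.46 and 3.67 FPKM in 9/13-HODEs livers and 1.35, 1.64 and 1.09 FPKM in Ctrl livers, and these overlapped.

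Cyp2b9 and Cyp2b13, 92.7% identical in coding sequence, are shown as the pair of members with the most similar promoters, with AGGTCA in capitals (GRCm38.p6, chromosome 7, plus strand, 26173159 to 26173458 for Cyp2b9 and 26061245 to 26061544 for Cyp2b13).
Cyp2b9: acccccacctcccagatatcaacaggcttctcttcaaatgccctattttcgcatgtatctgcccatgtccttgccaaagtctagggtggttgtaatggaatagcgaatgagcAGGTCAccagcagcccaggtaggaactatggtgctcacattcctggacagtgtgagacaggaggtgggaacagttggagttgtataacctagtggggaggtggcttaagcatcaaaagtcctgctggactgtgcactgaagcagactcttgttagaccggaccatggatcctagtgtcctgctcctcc
Cyp2b13: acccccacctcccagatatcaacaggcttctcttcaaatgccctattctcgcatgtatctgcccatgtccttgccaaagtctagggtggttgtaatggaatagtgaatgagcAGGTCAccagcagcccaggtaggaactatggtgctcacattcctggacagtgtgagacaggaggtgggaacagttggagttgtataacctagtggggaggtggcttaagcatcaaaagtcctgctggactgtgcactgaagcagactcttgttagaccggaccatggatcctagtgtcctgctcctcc
These windows were 99.3% identical (2 mismatches and 0 gap positions), and each had AGGTCA at -138 and no TATAAA.

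Cyp2g1, best known from the olfactory mucosa, lies between Cyp2a4 and Cyp2a5 at 26808892 to 26821205. It had 1.27, 1.82 and 1.67 FPKM in 9/13-HODEs livers and 0.805, 0.994 and 1.02 FPKM in Ctrl livers. Every treated liver was above every Ctrl liver, with a log2 fold change of 0.82 (SE 0.23, unadjusted p = 0.0092, adjusted p = 0.649 in edgeR). It kept an unadjusted p under 0.05 when any 1 library was left out. Its closest relative by coding sequence, Cyp2a5, was 66.8% identical.

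The other 2 tested genes of the chromosome 7 cluster had negative fold changes. Cyp2f2, which activates naphthalene in lung and liver, was at 460.1, 459.9 and 424 FPKM in 9/13-HODEs livers and 529, 422 and 642 FPKM in Ctrl livers. Its log2 fold change was -0.17 (SE 0.14, 95% interval -0.51 to 0.17). Cyp2s1, an epithelial P450, was at 0.123, 0.063 and 0.182 FPKM in 9/13-HODEs livers and 0.407, 0.105 and 0.072 FPKM in Ctrl livers, and its log2 fold change of -0.57 (SE 0.75) was 0.54 without Ctrl replicate 1. Cyp2t4 had 3, 0 and 10 counts in 9/13-HODEs livers against 0, 11 and 3 counts in Ctrl livers.

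The Cyp2d cluster on chromosome 15, which spans 82370527 to 82794294 and is related to human CYP2D6, held 2 of the 3 lower members. Cyp2d11 (82389154 to 82394022) was at 3.45, 2.56 and 2.36 FPKM in 9/13-HODEs livers and at 7.62, 4.68 and 9.84 FPKM in Ctrl livers. The treated livers all lay under the lowest Ctrl liver, and its log2 fold change was -1.32 (SE 0.28, unadjusted p = 0.0023, adjusted p = 0.649 in edgeR and 0.0033 in DESeq2). Cyp2d12 (82555072 to 82560403) was at 1.96, 2.32 and 1.67 FPKM in 9/13-HODEs livers and at 3.30, 3.35 and 3.54 FPKM in Ctrl livers. It had the smallest unadjusted edgeR p of the members, 0.00125, at a log2 fold change of -0.71 (SE 0.13, DESeq2 adjusted p = 0.0066). Both kept an unadjusted p under 0.05 whichever library was left out.

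These 2 genes are minor products of the cluster. Cyp2d10 was at 757, 808 and 783 FPKM in 9/13-HODEs livers and 713, 788 and 778 FPKM in Ctrl livers, a log2 fold change of 0.11 (95% interval -0.16 to 0.38). Cyp2d9, a male-biased testosterone hydroxylase, was at 342, 396 and 363 FPKM in 9/13-HODEs livers and 400.3, 479 and 483 FPKM in Ctrl livers. Its groups did not overlap, but the log2 fold change of -0.24 (SE 0.13) had an unadjusted p of 0.0976 in edgeR. Cyp2d22, Cyp2d26 and Cyp2d40 overlapped between groups, with log2 fold changes of -0.010, -0.060 and -0.25.

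Cyp2d11 is 94.7% identical to Cyp2d10 and Cyp2d12 is 92.1% identical to Cyp2d9 in coding sequence, so the division of reads within each pair is uncertain. Both pairs lay under the 95% identity set for merging, so neither was tested as 1 row. Cyp2d11 was 0.454, 0.316 and 0.301% of the FPKM of its pair in 9/13-HODEs livers and 1.06, 0.591 and 1.25% in Ctrl livers. Cyp2d12 was 0.569, 0.581 and 0.459% of its pair in 9/13-HODEs livers and 0.817, 0.695 and 0.728% in Ctrl livers. Neither share overlapped between groups (exact two-sided permutation p = 0.1 each). As both are minor genes of their pairs, these shares largely restate their own FPKM and are no separate support. In the pairs Cyp2a22 with Cyp2a12, Cyp3a59 with Cyp3a25 and Cyp3a16 with Cyp3a11 the shares overlapped.

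**Figure D3:**
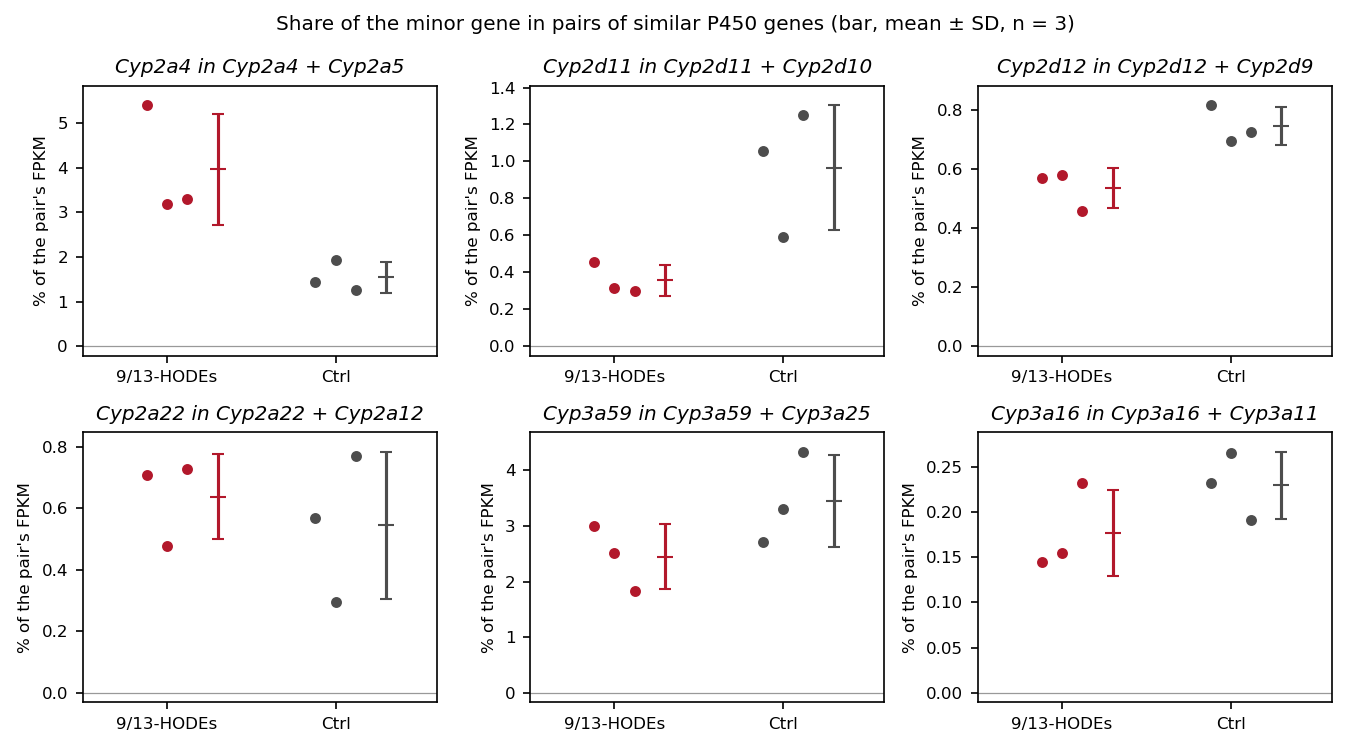
Share of the less abundant gene, as a percentage of the summed FPKM of 2 related genes, in 9/13-HODEs (left, red) and Ctrl (right, grey) livers. Points are livers and bars mark the mean ± SD (n = 3). The share of Cyp2a4 lies higher and the shares of Cyp2d11 and Cyp2d12 lower in 9/13-HODEs livers, and the other 3 pairs overlap.

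Of the Cyp1 family, whose members oxidise planar aromatic compounds, both tested genes were lower. Cyp1a1, the most inducible AHR target, lies at 57687928 to 57703824 on chromosome 9. It had only 64, 97 and 82 counts in 9/13-HODEs livers (0.289, 0.411 and 0.336 FPKM) and 147, 130 and 143 counts in Ctrl livers (0.646, 0.595 and 0.624 FPKM). Each treated liver was below each Ctrl liver. The log2 fold change was -0.78 (SE 0.23, unadjusted p = 0.0135, adjusted p = 0.649 in edgeR), and it lay between -0.88 and -0.66 with any 1 library left out.

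Cyp1a2, the caffeine-oxidising P450 of the central lobule, lies beside it on the other strand at 57676937 to 57683703. It was far more abundant than Cyp1a1, at 391, 447 and 497 FPKM in 9/13-HODEs livers against 571, 695 and 520.2 FPKM in Ctrl livers. The groups did not overlap in FPKM, but its log2 fold change of -0.36 (SE 0.19) had an unadjusted p of 0.0998 in edgeR. With 1 library left out it lay between -0.49, without 9/13-HODEs replicate 3, and -0.19, without Ctrl replicate 2. The unadjusted edgeR p was 0.0394 without 9/13-HODEs replicate 3, 0.0440 without Ctrl replicate 3 and 0.314 without Ctrl replicate 2. Cyp1b1, mainly expressed outside the liver, had at most 0.080 FPKM in any liver.

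The promoters of this pair are shown for the AHR core motif. Capitals mark GCGTG, the core of the AHR response element, and TATAAA (GRCm38.p6, chromosome 9, 57697363 to 57697662 on the plus strand for Cyp1a1 and 57683606 to 57683905 on the minus strand for Cyp1a2). The RefSeq start of Cyp1a1 lies 9685 bases inside the deposited gene model.
Cyp1a1: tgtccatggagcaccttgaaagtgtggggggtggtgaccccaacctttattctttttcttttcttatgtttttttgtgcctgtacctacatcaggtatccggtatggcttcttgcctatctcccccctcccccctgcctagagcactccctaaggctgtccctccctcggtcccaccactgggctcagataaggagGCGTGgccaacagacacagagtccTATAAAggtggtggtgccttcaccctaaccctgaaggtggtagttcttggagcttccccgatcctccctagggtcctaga
Cyp1a2: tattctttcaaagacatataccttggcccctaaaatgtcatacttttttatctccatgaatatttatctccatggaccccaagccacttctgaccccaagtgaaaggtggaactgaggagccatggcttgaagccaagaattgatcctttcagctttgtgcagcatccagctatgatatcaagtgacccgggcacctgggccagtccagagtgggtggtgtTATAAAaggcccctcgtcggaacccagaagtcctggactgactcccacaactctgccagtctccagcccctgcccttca
Cyp1a1 had GCGTG at -54 and TATAAA at -30. Cyp1a2 had TATAAA at -29 and no GCGTG in this window, which says nothing of sites elsewhere.

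Across the 29 members with a RefSeq window, TATAAA was found in 15, GCGTG in 5, AGGTCA in 11 and AGTTCA, another nuclear receptor half-site, in 1 (Cyp3a11). Both strands were searched and no matches overlapped. In all 32851 windows of the table the shares were 13.6%, 32.4%, 16.3% and 14.0%. Cyp2d12, Cyp2d22, Cyp2g1 and Cyp2u1 had no window.

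The Cyp3a genes, which oxidise the widest range of drugs and steroids, had a lower summed level. It was 284, 289 and 292 FPKM in 9/13-HODEs livers and 343, 362 and 345 FPKM in Ctrl livers, a difference of -17.5% with no overlap (exact two-sided permutation p = 0.1). On the log2 scale this was -0.28, and with TMM factors it was -0.20. All 5 tested genes had negative fold changes and none reached an unadjusted p under 0.05 in edgeR. Cyp3a11, the PXR target closest to human CYP3A4, set the sum, at 186, 193 and 199 FPKM in 9/13-HODEs livers against 230.1, 265 and 232 FPKM in Ctrl livers. Its groups did not overlap, and its log2 fold change was -0.27 (SE 0.13, unadjusted p = 0.0843 in edgeR, 0.101 in DESeq2 and 0.0113 in limma-trend on log2(FPKM + 0.1)). With 1 library left out it lay between -0.33, without 9/13-HODEs replicate 3, and -0.16, without Ctrl replicate 2, and the unadjusted edgeR p between 0.0501 and 0.257 in the same fits.

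Cyp3a59 was at 2.29, 1.82 and 1.298 FPKM in 9/13-HODEs livers and 2.46, 2.33 and 3.56 FPKM in Ctrl livers, without overlap. Its log2 fold change was -0.56 (SE 0.25, unadjusted p = 0.0619 in edgeR and 0.0488 in DESeq2), and its coding sequence is 97.5% identical to that of Cyp3a25. Cyp3a25 was at 69.6 to 74.4 FPKM in 9/13-HODEs livers and 68.5 to 88.4 FPKM in Ctrl livers. Cyp3a13, which stands apart from the other Cyp3a genes at 137892932 to 137921619 on chromosome 5, was at 21.9 to 23.2 FPKM in 9/13-HODEs livers and 21.1 to 30.7 FPKM in Ctrl livers. Cyp3a16, a fetal form, had log2 fold change -0.63 (SE 0.38) at under 1 FPKM. The female-biased Cyp3a41a, Cyp3a41b and Cyp3a44 stayed at 0 counts in both groups, though Cyp3a41a and Cyp3a41b are 99.9% identical in coding sequence, and how reads that fit both were counted is not given in the sources used here.

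Cyp2e1, the ethanol- and acetaminophen-oxidising P450, was the most abundant member. It was at 1751, 2474 and 3230 FPKM in 9/13-HODEs livers and 2399, 3546 and 3554 FPKM in Ctrl livers. The groups overlapped, and its log2 fold change of -0.27 had a 95% interval of -0.97 to 0.43. It made up 41.4% of the summed FPKM of the members in 9/13-HODEs livers and 44.8% in Ctrl livers, ahead of Cyp2d with 29.9% in 9/13-HODEs livers and 26.9% in Ctrl livers.

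The Cyp2j genes make epoxides of arachidonic acid and other polyunsaturated fatty acids. Cyp2j5, their main gene here, was at 73.5, 80.03 and 78.1 FPKM in 9/13-HODEs livers and 88.3, 88.7 and 106 FPKM in Ctrl livers. The groups did not overlap, at a log2 fold change of -0.22 (SE 0.10, unadjusted p = 0.0626 in edgeR and 0.115 in DESeq2). With 1 library left out it lay between -0.27 and -0.16, and the unadjusted edgeR p between 0.0425, without 9/13-HODEs replicate 3, and 0.183, without 9/13-HODEs replicate 1. Cyp2j6 and Cyp2j9 overlapped, with log2 fold changes of 0.18 (SE 0.11) and 0.16 (SE 0.39), and Cyp2j8 had 12 counts in 9/13-HODEs replicate 1 and 0 counts in each of the other 5 livers.

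Of the members with a known endogenous substrate, Cyp2r1, a vitamin D 25-hydroxylase, was at 2.95, 3.09 and 2.01 FPKM in 9/13-HODEs livers and 3.29, 2.58 and 3.29 FPKM in Ctrl livers. Cyp2u1, which hydroxylates long-chain fatty acids, was at 9.73, 10.3 and 6.04 FPKM in 9/13-HODEs livers and 11.5, 10.4 and 8.70 FPKM in Ctrl livers. Their log2 fold changes were -0.13 (SE 0.19) and -0.18 (SE 0.20), and both overlapped between groups.

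Summed over all 33 members, the level was 4975, 5870 and 6903 FPKM in 9/13-HODEs livers and 5990, 7482 and 7575 FPKM in Ctrl livers. The difference of the means was -15.7% and the groups overlapped. On the log2 scale it was -0.25, and it lay between -0.37 without 9/13-HODEs replicate 3 and -0.14 without 9/13-HODEs replicate 1. Without Cyp2e1 the sums were 3224, 3396 and 3673 FPKM in 9/13-HODEs livers and 3590, 3937 and 4020 FPKM in Ctrl livers, again with overlap. By subfamily, the FPKM sums of Cyp1a (-25.3%), Cyp2j (-14.3%) and Cyp3a (-17.5%) were lower without overlap. That of Cyp2g (68.6%) was higher without overlap. Those of Cyp2a (6.64%), Cyp2d (-7.10%), Cyp2e, Cyp2f, Cyp2r, Cyp2s and Cyp2u overlapped. Among all tested single genes, FPKM was lower without overlap for 9.82 percent and higher for 5.28 percent. With TMM factors the log2 ratios of the sums were -0.35 for Cyp1a, -0.14 for Cyp2j and -0.20 for Cyp3a. In FPKM they were -0.42, -0.22 and -0.28 in the same order. Cyp1a2, the main gene of the Cyp1a sum, overlapped between groups after TMM scaling. The Cyp2a sum, 0.093 on the log2 scale, was -0.17 without 9/13-HODEs replicate 3 and -0.13 between group medians. FPKM was deposited on a scale that counted all transcripts, and mitochondrially encoded genes took 11.8, 11.6 and 10.5% of counts in 9/13-HODEs livers and 9.00, 9.51 and 6.70% in Ctrl livers.

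**Figure D4:**
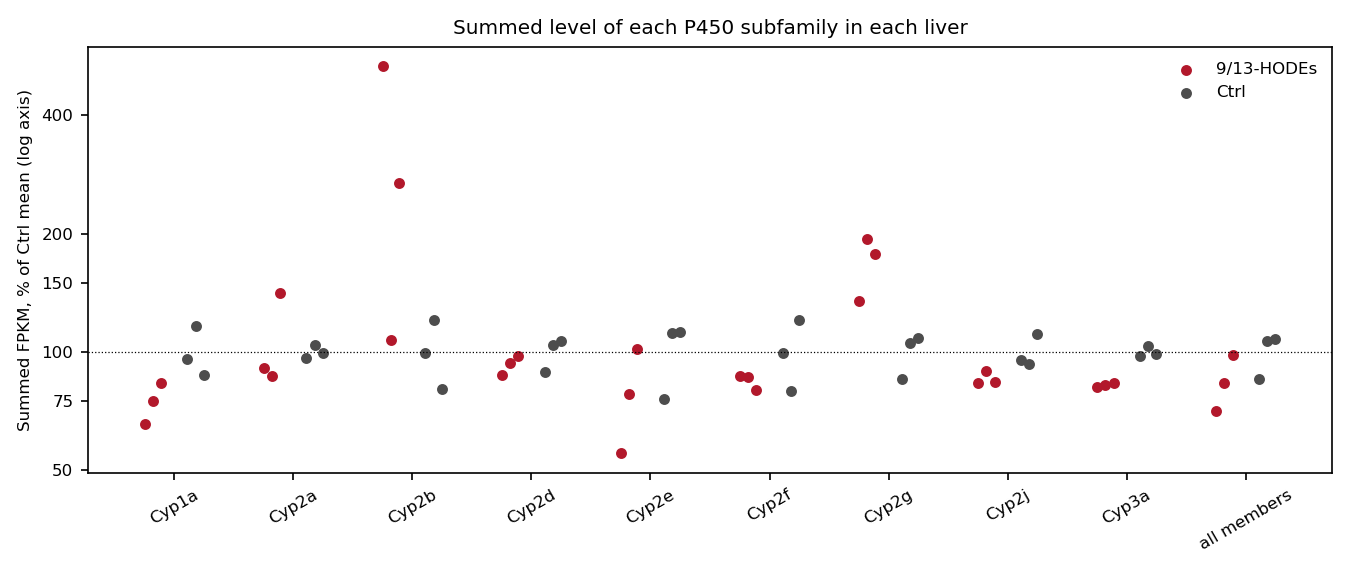
Summed FPKM of each P450 subfamily and of all 33 members in each liver, as a percentage of the Ctrl mean, on a log axis (9/13-HODEs red and left, Ctrl grey and right). The 3 9/13-HODEs livers lie within 284 to 292 FPKM for Cyp3a, under the Ctrl range of 343 to 362 FPKM, while Cyp2b spreads widely among the 9/13-HODEs livers and Cyp2e in both groups. The sums are not rescaled by the TMM factors, which move the log2 ratio of Cyp3a from -0.28 to -0.20.

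The genes that serve and control the P450s were described from lists, with counts at an unadjusted edgeR p under 0.05 set beside 4.08 percent of all genes as higher and 3.61 percent as lower. Of the 6 redox partners, Pgrmc1, a haem-binding membrane protein that associates with P450s, was lower (log2 fold change -0.27, SE 0.098, unadjusted p = 0.0299), and without 9/13-HODEs replicate 1 or 2 or Ctrl replicate 1 or 3 none was called as lower. Por was at 78.2, 96.5 and 148 FPKM in 9/13-HODEs livers and 89.9, 104 and 113 FPKM in Ctrl livers. Of 9 genes of haem supply only Hmox1, which degrades haem, was called, as higher (0.44, SE 0.14, unadjusted p = 0.0167), and no gene of this list was called with total count scaling or without 9/13-HODEs replicate 2 or Ctrl replicate 1. Of 19 tested receptors and transcription factors 2 were higher and 0 lower: Nr1h4, the bile acid receptor FXR, at 0.25 (SE 0.084, unadjusted p = 0.0219) and Cebpb at 0.48 (SE 0.20, unadjusted p = 0.0485). None was called as higher with total count scaling, in limma-trend with either pseudocount, without Ctrl replicate 2 or with a replicate block. The transcripts of the receptors for foreign compounds had log2 fold changes of -0.23 (SE 0.21) for Ahr, 0.20 (SE 0.16) for Nr1i3, which encodes CAR, and 0.12 (SE 0.090) for Nr1i2, which encodes PXR.

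Targets of these receptors outside the P450s had no common direction in edgeR with TMM scaling. Of 7 tested AHR targets 4 were positive and 3 negative, with a median of 0.021 and none called. With total count scaling 2 were positive and 5 negative, and in limma-trend on log2(FPKM + 0.1) 1 and 6. The medians of all genes were then -0.074 and -0.059. With 1 library left out 2 to 5 of the 7 were positive, and 1 was called as higher without Ctrl replicate 1. Of 21 CAR and PXR targets 10 were positive and 11 negative, with a median of -0.014. The 3 called as higher were Slco1a4, Gadd45b and Gstt1, and 0 were called as lower. Slco1a4, an organic anion importer, was at 0.72 (SE 0.17, unadjusted p = 0.0046). Gadd45b, a stress-response gene, was at 1.55 (SE 0.41, unadjusted p = 0.0076). Gstt1, a glutathione transferase, was at 0.53 (SE 0.19, unadjusted p = 0.0265). These calls changed with 1 library left out. Without treated replicate 2 they were 3 higher and 2 lower, and without treated replicate 3 they were 2 higher and 2 lower. Without Ctrl replicate 1 they were 5 higher and 0 lower. The remaining fits of this kind called none as lower.

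Sex-biased liver genes outside the P450s were listed because several members are sex-biased. Of 20 tested male-biased genes 18 were negative, with a median of -0.46, and 6 were called as lower and 0 as higher. C6, a complement component, was at 24.0, 33.4 and 27.2 FPKM in 9/13-HODEs livers and 42.0, 58.6 and 44.0 FPKM in Ctrl livers (log2 fold change -0.72, SE 0.19, unadjusted p = 0.0073). Mup7, a major urinary protein with near-identical copies whose reads may be shared, was at -1.70 (SE 0.48, unadjusted p = 0.0106). Of 16 female-biased genes 7 were expressed enough to test, 6 of them positive, and 2 were called as higher (1 without 9/13-HODEs replicate 1 or 3 or Ctrl replicate 2). Atp6v0d2, a subunit of a proton pump, was at 1.43, 0.596 and 1.39 FPKM in 9/13-HODEs livers and 0.747, 0.189 and 0.142 FPKM in Ctrl livers (log2 fold change 1.73, SE 0.71, unadjusted p = 0.0463). These groups overlapped. The median of the female-biased genes was 0.30, and it lay between 0.12 without Ctrl replicate 2 and 0.73 without Ctrl replicate 3. In the same fits 4 and 7 of the 7 were positive. Only 3 of these genes had a mean of at least 1 FPKM. With that filter 2 were positive and 1 negative, and 0 were called. The number of male-biased genes called as lower was 3 without Ctrl replicate 2.

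Pericentral and periportal genes outside the P450s were listed because several abundant members are zoned. Of 16 pericentral genes 14 were negative, with a median of -0.20, and 1 was called, Ces3a, as lower (-0.35, SE 0.14, unadjusted p = 0.0457). Their summed level was 1951 to 2608 FPKM in 9/13-HODEs livers and 2652 to 2977 FPKM in Ctrl livers, without overlap. In FPKM 9.82 percent of all tested single genes were lower without overlap, and this sum was not rescaled by the TMM factors. With 1 library left out the median lay between -0.41 without 9/13-HODEs replicate 3, where 6 were called as lower, and -0.086 without 9/13-HODEs replicate 1, and 0 were called without 9/13-HODEs replicate 1 or 2 or Ctrl replicate 1. Of 16 periportal genes 12 were positive with a median of 0.094, which was -0.0061 in limma-trend on log2(FPKM + 0.1). In limma-trend with either pseudocount, and in edgeR without Ctrl replicate 2, 8 of the 16 were positive. Sds, a serine dehydratase, was called as higher (0.52, SE 0.14, unadjusted p = 0.0071) and Cps1 of the urea cycle as lower (-0.28, SE 0.12, unadjusted p = 0.0491). None of this list was called as lower in DESeq2, with a replicate block, or without 9/13-HODEs replicate 1 or 2 or Ctrl replicate 1.

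**Figure D5:**
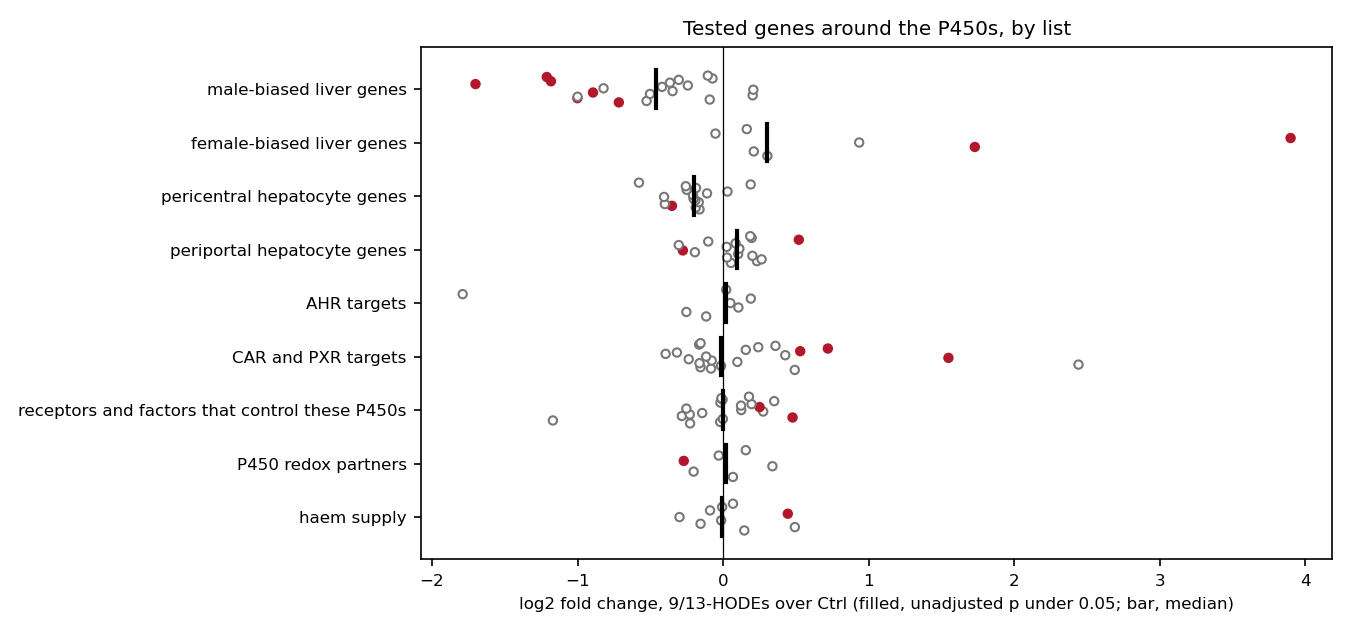
Log2 fold change (9/13-HODEs over Ctrl, edgeR) of the tested genes in 9 lists around the P450s, with the list median as a black bar. Filled red points have an unadjusted p under 0.05. The medians lie at -0.46 for male-biased, 0.30 for female-biased and -0.20 for pericentral genes, and within 0.10 of 0 for the other 6 lists. With 1 library left out the female-biased median lies between 0.12 and 0.73 and the pericentral median between -0.41 and -0.086.

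Markers of the other cells in the samples were set beside these values. The 7 hepatocyte markers with counts summed to 59823 to 70235 FPKM in 9/13-HODEs livers and 64780 to 70150 FPKM in Ctrl livers. Cholangiocyte markers (5 of 7 tested) summed to 13.5 to 17.2 FPKM in 9/13-HODEs livers and 12.8 to 19.6 FPKM in Ctrl livers, and Kupffer cell markers (7 of 7) to 31.2 to 39.4 FPKM in 9/13-HODEs livers against 28.2 to 37.5 FPKM in Ctrl livers. Endothelial markers (6 of 7) summed to 29.0 to 38.5 FPKM in 9/13-HODEs livers against 28.6 to 34.0 FPKM in Ctrl livers, and stellate cell markers (7 of 7) to 19.1 to 22.6 FPKM in 9/13-HODEs livers against 18.6 to 19.3 FPKM in Ctrl livers. Lymphocyte and neutrophil markers (6 of 8) summed to 4.65 to 13.1 FPKM in 9/13-HODEs livers against 2.60 to 5.54 FPKM in Ctrl livers, and adipocyte markers (3 of 7, with Adipoq and Plin1 below the filter) to 3.22 to 7.68 FPKM in 9/13-HODEs livers against 1.35 to 4.39 FPKM in Ctrl livers. All 3 tested adipocyte markers were positive, with a median log2 fold change of 0.87, and 2 were called as higher at an unadjusted edgeR p under 0.05, also 2 in every fit that left out 1 library and 1 in limma-trend with either pseudocount. Fabp4, a fatty acid binding protein, was at 0.70 (SE 0.18, unadjusted p = 0.0064), and Retn had 61, 8 and 10 counts in 9/13-HODEs livers and 0 counts in each Ctrl liver. Retn thus passed the filter only through the 9/13-HODEs livers, so its positive sign was fixed in advance. With no filter 6 of the 7 adipocyte markers were positive and 1 was negative. All 7 stellate cell markers and all 6 tested lymphocyte and neutrophil markers were positive as well (medians 0.28 and 0.57), with 0 called, and with 1 library left out 0 to 2 of either list were. Positive fold changes were also found for 5 of 6 endothelial markers (median 0.30), of which Lyve1, a hyaluronan receptor, was called as higher (1.06, SE 0.32, unadjusted p = 0.0145; 4 were called without 9/13-HODEs replicate 1), for 5 of 7 Kupffer cell and hepatocyte markers each and for 4 of 5 cholangiocyte markers. Of the 7 hepatocyte markers 2 were positive with total count scaling and in limma-trend with either pseudocount, and 1 without 9/13-HODEs replicate 3. Of the 5 cholangiocyte markers 2 were positive without 9/13-HODEs replicate 3 or without Ctrl replicate 1. Red blood cell markers (5 of 5) summed to 122 to 174 FPKM in 9/13-HODEs livers against 114 to 249 FPKM in Ctrl livers, and the exocrine pancreas markers, of which 1 of 6 had counts, to 4.33 to 6.59 FPKM in 9/13-HODEs livers against 5.21 to 11.2 FPKM in Ctrl livers. All 5 red blood cell markers were negative (median -0.25), and Alas2, the erythroid enzyme of haem synthesis, was called as lower (-0.38, SE 0.14, unadjusted p = 0.0317). Without Ctrl replicate 1 that median was 0.31, and 0 were called without 9/13-HODEs replicate 1 or Ctrl replicate 1 or 2. The part of these cell types in the P450 levels was not tested.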

How the data were processed

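For each gene model and library the table deposited by the authors gives a count (whole numbers, not normalized) and an FPKM value (scaled by the authors for gene length and depth). The submitters' processing notes list StringTie 1.3.4d, HISAT2 2.0.4, cutadapt 1.9 and UMI-tools, beside edgeR and DESeq2. Their settings, and whether counts are of reads or of molecules, are not given in the sources used here. Libraries were strand-marked and paired-end.

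Counts of the genes averaging 0.1 FPKM or more were compared with edgeR 4.0.16 (R 4.3.3; TMM, quasi-likelihood test, Benjamini-Hochberg adjustment over 14741 genes). SEs follow from the test, and 95% intervals from its degrees of freedom. DESeq2 1.42.0 and limma 3.58.1 (log2 FPKM with a pseudocount of 0.1 or 1), other scalings, filters, omitted libraries, a replicate block and the merging of genes at least 95% identical in coding sequence (BLAST 2.17.0, GENCODE M21) were alternatives; the merging and TMM-scaled FPKM were added after seeing the data. A count of 0 is entered in the table as 0.0001 FPKM. The script was tested on simulated counts.

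The members and lists were chosen with earlier results of these data known. Full values are given for members with an unadjusted p under 0.05, for members of mean FPKM of at least 1 whose groups did not overlap, and for the most abundant member of each subfamily. At most 3 of the genes of smallest p were named per list, and receptors beyond these, with Por, were chosen after their values were seen. One gene of the lists is not reported here by name. All 6 libraries were used.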

Additional observations from a re-analysis of the deposited data

How the results depend on the processing

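The 19 members with full values were recomputed under 15 alternatives, 281 values in all. Of these, 255 kept their direction and their side of an unadjusted p of 0.05, 5 lost that call, 17 gained it and 4 changed sign. With 1 library left out the log2 fold change lay between -0.31 and 0.51 for Cyp2a5, between -0.081 and 0.69 for Cyp2b10 and between -0.21 and 0.011 for Cyp2r1, changing sign without 9/13-HODEs replicate 3, and between -1.03 and 0.54 for Cyp2s1, changing sign without Ctrl replicate 1. Members lower at an unadjusted p under 0.05 numbered 7 with total count scaling and in limma-trend with either pseudocount (0.1 or 1), where the medians of all genes were -0.074, -0.059 and -0.030, and 3 to 7 with 1 library left out, the 7 being without 9/13-HODEs replicate 3. Members past an adjusted p of 0.05 numbered 3 in DESeq2. The median of the members was -0.20 with total count scaling and -0.19 in limma-trend on log2(FPKM + 0.1), and lay between -0.20 and -0.080 with 1 library left out, being -0.20 without 9/13-HODEs replicate 2. On the log2 scale the Cyp3a sum was -0.28 in FPKM, -0.36 in TPM, -0.20 with TMM factors and -0.31 in CPM. The Cyp2s sum lay between -1.07 and 0.47 with 1 library left out, being 0.47 without Ctrl replicate 1. Rescaling FPKM to TPM moved the median of all genes to -0.14, against -0.06 in FPKM. Genes past an adjusted p of 0.05 numbered 3 in edgeR, 89 in DESeq2 and 3 to 16 with 1 library left out. Samples of the same replicate number did not deviate together (correlations 0.007, -0.028 and -0.038), and those of different number lay between -0.014 and 0.040. Such values cannot exclude pairing, and whether the numbers mark pairs is not given in the sources used here. With a replicate block 2 members were higher and 3 lower at an unadjusted p under 0.05, the median was -0.14, Cyp2b9 had an unadjusted edgeR p of 0.106, and 0 genes passed the adjusted p (892 at an unadjusted p under 0.05). Merging by protein sequence was not run.

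With 3 mice a group and a common coefficient of variation of 0.36 between mice, the SEs and 95% intervals stand for the precision of the fold changes they accompany. For Cyp2b9 the 95% interval was 1.11 to 7.89. Cyp2b13, Cyp2j8 and Cyp2t4 had counts near the floor of 3. The mitochondrial share of counts differed between the groups as given above, and its part, like that of reads shared between near-identical genes, was not tested.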
